A study of Mus musculus with 7 samples.

Results

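The microRNAs (miRNAs) described here were the mature products of the hairpins mir-126a, mir-126b, mir-221 and mir-222 in mouse plasma. They were taken by name, any arm, from the deposited counts, and 6 of the 640 mature miRNAs counted belonged to them: miR-126a-3p, miR-126a-5p, miR-221-3p, miR-221-5p, miR-222-3p and miR-222-5p. No row of the counts carried a name of mir-126b. Argonaute 2 (Ago2), the protein that holds a mature miRNA in its silencing complex, was immunoprecipitated from plasma and the bound small RNA was sequenced in 7 libraries. Each library was a pool of plasma from 10 mice, and each condition had 1 library, so no difference between conditions has a replicate check.

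All mice were adult C57BL/6JOlaHsd males (labelled c57), fitted with a guide cannula. Status epilepticus (SE) was triggered by kainic acid injected into the amygdala, and a benzodiazepine was then given to limit mortality. Pools from SE mice came from 4, 8 and 24 h and from 2 weeks after injection. Control mice received PBS by the same route, with pools at 4, 8 and 24 h. No 2-week control library passed the quality check, and control 24 h therefore served for 2 weeks as well as for 24 h, so that these comparisons share it. A pool averages its mice and shows no spread between them, and in plasma more release from a cell type and slower clearance cannot be told apart.

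miR-126 is made in endothelial cells, the lining of blood vessels, from an intron of Egfl7, a gene for a factor secreted by the same cells. It is known for repressing brakes on vascular growth factor signalling and is abundant in platelets. miR-221 and miR-222 are transcribed together from the X chromosome and share a seed, the bases near the 5′ end that pair with targets. They are known for repressing the receptor gene Kit and the cell cycle inhibitor gene Cdkn1b in vessel wall cells, and they also occur in platelets.

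Sequences from RefSeq on GRCm38.p6 were found for 4 of the 6 counted miRNAs, and 3 are shown because the results turn on them. The capitals mark the seed, bases 2 to 8.
miR-126a-3p: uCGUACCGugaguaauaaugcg
miR-221-3p: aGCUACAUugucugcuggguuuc
miR-222-3p: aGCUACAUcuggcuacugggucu
miR-126a-3p lies at chr2:26591402-26591423 on the plus strand, miR-221-3p at chrX:19146307-19146329 and miR-222-3p at chrX:19146901-19146923, both on the minus strand. miR-221-3p and miR-222-3p began with the same 8 bases and differed at 12 of their 23 positions. The alignment behind the counts allowed 2 mismatches. miR-1928 was the only other mature miRNA with this seed among the 1679 in the RefSeq table, and it had no row in the counts. No other entry of that table shared the seed of miR-126a-3p.

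The hairpin of miR-126a is shown because both its arms were counted, with the 3p arm in capitals and the 5p arm in the stretch before the loop.
Mir126a: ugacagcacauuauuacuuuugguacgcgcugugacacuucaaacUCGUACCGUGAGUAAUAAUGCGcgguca
It occupies chr2:26591357-26591429, inside Egfl7, where it is intronic in 8 of the 9 annotated transcripts and lies in an exon of 1 with a retained intron. Mir126b is annotated on the opposite strand of the same place, and its 5p product (chr2:26591399-26591420) is antisense to 19 bases of miR-126a-3p. The Mir221 hairpin (chrX:19146294-19146388) and the Mir222 hairpin (chrX:19146893-19146971) are 504 bases apart on the minus strand, and the GENCODE M21 annotation places no host gene over either.

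Library totals were 2043220 to 5405357 counts, with the lowest in control 4 h and the highest in SE 4 h. Levels are given as CPM, counts scaled to a common library size, with library sizes adjusted by the TMM method of edgeR, so the CPM of a library do not add up to a fixed total. The floor for lower bounds was 3 counts per library, or 0.696 to 1.72 CPM. Low counts of each library gathered around a value of its own, called a low-count unit here. Control 4 h had a unit of 102 counts and the other libraries 33.1 to 60.2 counts, so few units stood behind a low count and least of all in control 4 h. Control 4 h stood apart in this way, and the 4 h fold changes are therefore given against the other controls too. All intervals and floors cover counting error only.

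miR-126a-5p was the most abundant of the 6 miRNAs in every library. The control pools held 1901 counts (1091 CPM) at 4 h, 5562 (1290 CPM) at 8 h and 7682 (1947 CPM) at 24 h. In SE it had 9268 counts (2177 CPM) at 4 h, 6145 (1687 CPM) at 8 h, 6124 (2184 CPM) at 24 h and 4436 (1437 CPM) at 2 weeks. The SE 4 h and 24 h libraries lay above all 3 controls, and the 8 h and 2-week libraries lay within the range of the controls. By raw counts it ranked between 25th and 37th of all miRNAs in a library.

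miR-126a-3p, the arm usually described as the guide strand of this hairpin, was lower throughout. Its control counts were 203 (116 CPM) at 4 h, 1304 (302 CPM) at 8 h and 1297 (329 CPM) at 24 h. In SE it had 1086 counts (255 CPM) at 4 h, 832 (228 CPM) at 8 h, 971 (346 CPM) at 24 h and 985 (319 CPM) at 2 weeks. Control 4 h was the only library under 200 CPM, and its 203 counts came to 1.99 low-count units, against 16.0 to 29.7 units in the others.

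miR-221-3p had the narrowest range of the 4 miRNAs that reached 50 CPM. Controls gave 778 counts (446 CPM) at 4 h, 1747 (405 CPM) at 8 h and 1926 (488 CPM) at 24 h. In SE it had 1494 counts (351 CPM) at 4 h, 1412 (388 CPM) at 8 h, 1162 (414 CPM) at 24 h and 1226 (397 CPM) at 2 weeks. The highest library was 1.39 times the lowest, and the SE and control ranges overlapped between 405 and 414 CPM.

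miR-222-3p, from the neighbouring hairpin and with the same seed, varied most among the 4 miRNAs that reached 50 CPM. Control 4 h held no counts of it, control 8 h 369 (85.6 CPM) and control 24 h 966 (245 CPM). In SE it had 930 counts (218 CPM) at 4 h, 427 (117 CPM) at 8 h, 138 (49.2 CPM) at 24 h and 496 (161 CPM) at 2 weeks. Every SE library lay within the range of the controls. Its 138 counts in SE 24 h were 3.05 low-count units, and 3 units in control 4 h would be 307 counts (176 CPM), so the absence there was not distinguishable from a level of that size if a unit is 1 captured molecule.

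The passenger arms of the X-linked pair stayed under 50 CPM in all 7 libraries. For miR-222-5p the acute SE libraries held 129 (30.3 CPM), 28 (7.69 CPM) and 113 counts (40.3 CPM) in order of time, control 24 h held 117 (29.6 CPM), and the remaining 3 libraries held none. miR-221-5p had 68 counts (39.0 CPM) in control 4 h, 16 (3.76 CPM) in SE 4 h and 25 (8.10 CPM) in SE 2 weeks, and none elsewhere. None of these counts exceeded 3.43 low-count units.

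**Figure D1:**
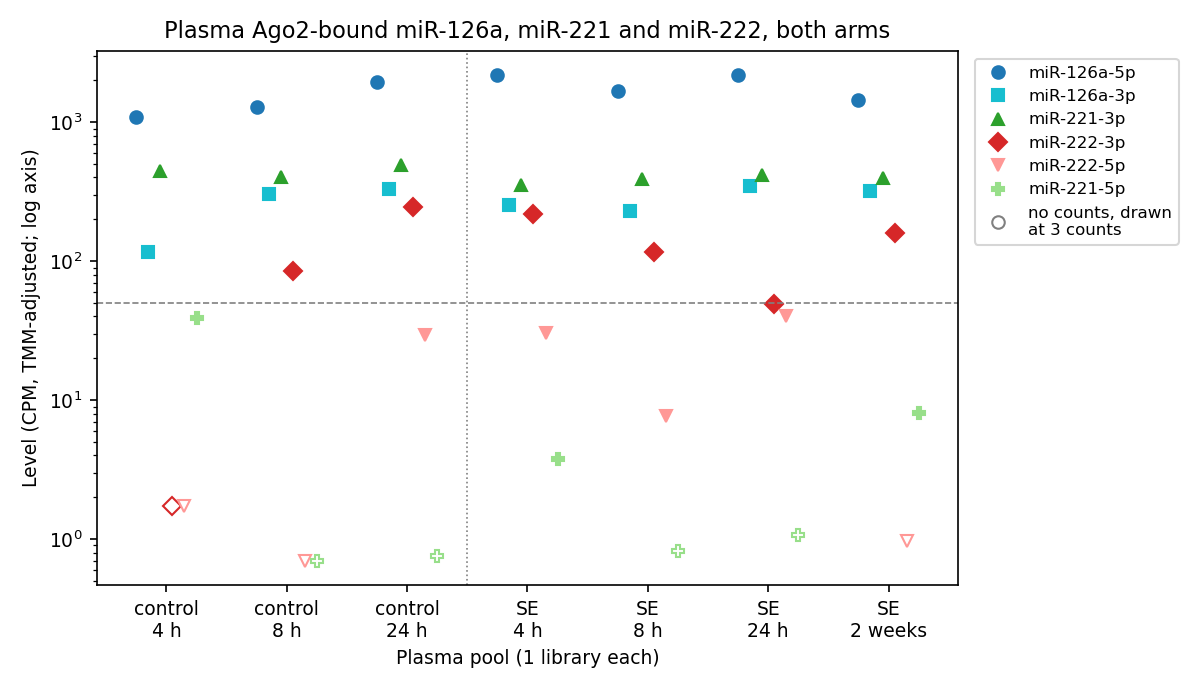
Level of each of the 6 miRNAs in the 7 plasma pools, in TMM-adjusted CPM on a log axis, with 1 library per pool. Open symbols mark libraries with no counts, drawn at 3 counts, and the dashed line marks 50 CPM; miR-221-3p stays between 351 and 488 CPM while miR-222-3p runs from no counts to 245 CPM.

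The spread of each miRNA across the pools was described by the SD of log2(CPM + 1) over the 7 libraries. Among the 79 miRNAs with a mean of 50 to 500 CPM, miR-221-3p had the smallest SD, at 0.15, and the median was 0.65. With DESeq2's size factors it was again the smallest (0.19), and with library size only it was 77th of 81 in descending order (0.37). miR-222-3p had an SD of 2.76, the 4th largest, and was also 4th with both other scalings. Without control 4 h its SD was 0.87 and it was 19th of 79, so that library carried most of the value. miR-126a-3p had an SD of 0.54 and ranked 54th of 79, and without control 4 h it had 0.23 and ranked 77th. miR-221-3p was the smallest without that library too (0.16). These orders are descriptions over 7 libraries and carry no test.

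**Figure D2:**
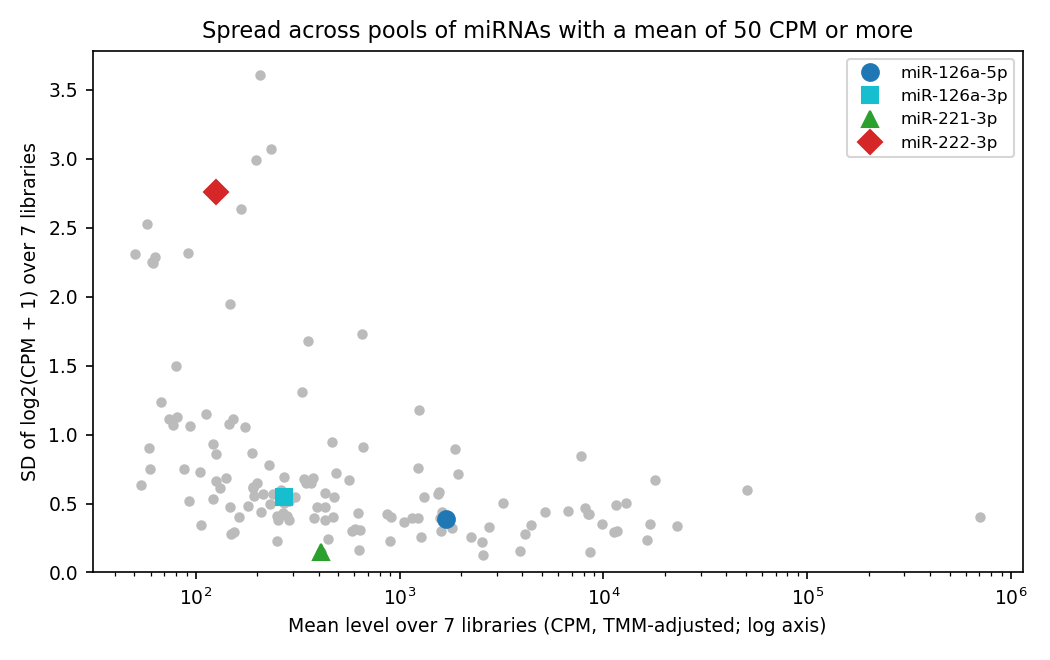
SD of log2(CPM + 1) over the 7 libraries against the mean level on a log axis, for miRNAs with a mean of 50 CPM or more. Grey points are the other miRNAs; miR-221-3p lies at 0.15 and miR-222-3p at 2.76, which is 0.87 without control 4 h.

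The first comparison asked whether plasma taken 4 h after SE differed from its control. miR-126a-3p and miR-126a-5p were called higher in SE, by 2.19-fold and 2.00-fold (log2 fold changes 1.13 and 1.00), and miR-222-3p was at least 127-fold higher against a control without counts. miR-221-3p was not called (log2 fold change -0.35). A call needed 50 CPM or more in either library, a change of at least 1.5-fold and an unadjusted p under 0.05 in the exact test of edgeR, run with an assumed biological coefficient of variation (BCV) of 0.1. The p-values rest on that set value and compare 2 libraries rather than 2 conditions, so none is printed. Of the 4 members tested 3 were called higher, where 67.2% of the 189 miRNAs tested were called (32.3% higher and 34.9% lower).

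The 4 h calls turned on the control library. Against control 8 h, miR-126a-3p had a log2 fold change of -0.25, and against control 24 h of -0.37. miR-126a-5p had values of 0.75 and 0.16 against the same controls, and miR-222-3p of 1.35 and -0.16. Both miR-126a-5p and miR-222-3p were called higher against control 8 h, where 54.6% of all miRNAs tested were called, and none of the 4 members was called against control 24 h, where 58.4% were. miR-221-3p was called against neither, at -0.21 and -0.48. With a floor of 3 low-count units in control 4 h in place of 3 counts, the lower bound for miR-222-3p was 1.24-fold, which is under the threshold.

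At 8 h none of the 4 members tested was called, where 50% of the 154 miRNAs tested were (35.1% higher and 14.9% lower). The log2 fold changes were 0.39 for miR-126a-5p, -0.40 for miR-126a-3p, -0.06 for miR-221-3p and 0.45 for miR-222-3p. The arms of miR-126a thus had values of opposite sign, each under 1.5-fold. The median over the 4 was 0.16, and over all miRNAs tested it was 0.23.

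At 24 h miR-222-3p was called lower in SE, with a log2 fold change of -2.31 (4.97-fold lower), and it ranked 135th of 141 from the most increased. It was the only call among the 4 members, where 44.7% of the miRNAs tested were called (24.8% higher and 19.9% lower). The call also held with BCV 0.4, a threshold of 2-fold and each of the 3 other scalings. Against control 8 h the log2 fold change of miR-222-3p was -0.80, also called. Against control 4 h the direction was the other way, with 138 counts (49.2 CPM) in SE 24 h and none in that control. That pair was not tested, because neither library reached 50 CPM. miR-126a-5p (0.17), miR-126a-3p (0.08) and miR-221-3p (-0.24) stayed within 1.5-fold, but with library size only miR-126a-5p and miR-126a-3p had -0.45 and -0.54, and miR-221-3p was called lower at -0.85. Under that scaling the median of all miRNAs was -0.64 in place of 0.035, and 13 were called higher and 75 lower in place of 35 and 28. miR-486b-5p, a red blood cell miRNA, held 2829085 counts in SE 24 h against 2286334 in its control and was called higher there (log2 fold change 0.80). Its part in the result was not tested.

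At 2 weeks, against control 24 h, miR-222-3p was called lower with a log2 fold change of -0.61 (1.52-fold lower), just past the threshold. It was the 1 call among 4 members, where 31.7% of 145 miRNAs were called (18.6% higher and 13.1% lower). The other log2 fold changes were -0.44 for miR-126a-5p, -0.30 for miR-221-3p and -0.04 for miR-126a-3p. Against control 8 h miR-222-3p had a log2 fold change of 0.91 in the other direction and was called higher, and with library size only (-0.54) or with TMM computed without miR-486a-5p and miR-486b-5p (-0.45) it was not called. Without those miRNAs 31 were called higher and 12 lower over all, in place of 27 and 19.

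The same rule was applied between control pools, where no SE was involved. miR-222-3p was called in all 3 pairs, at least 49.7-fold higher in control 8 h and at least 142-fold higher in control 24 h than in control 4 h, and 2.86-fold higher in control 24 h than in control 8 h. With a floor of 3 low-count units in control 4 h the first 2 values were 0.486-fold and 1.39-fold, both under the threshold. miR-126a-3p was called 2.60-fold higher in control 8 h and 2.82-fold higher in control 24 h than in control 4 h, and miR-126a-5p higher in control 24 h than in control 4 h (0.84) and control 8 h (0.59). miR-221-3p was called in none of the pairs, with values between -0.14 and 0.27. Over all miRNAs, 59.3% were called between the 8 h and 4 h controls (15.3% higher and 44.1% lower in the later one), 69.6% between those of 24 h and 4 h (26.5% and 43.1%) and 45.4% between those of 24 h and 8 h (26.2% and 19.1%). The 2.19-fold difference of miR-126a-3p between SE and control at 4 h was smaller than the 2.60-fold and 2.82-fold between controls. These values share control 4 h as the lower library, and miR-126a-3p differed 1.09-fold between control 8 h and control 24 h. The 4.97-fold difference of miR-222-3p at 24 h was larger than the 2.86-fold between the control libraries that held it. It was smaller than the 3-count bounds of 49.7-fold and 142-fold against control 4 h. It also rested on 3.05 low-count units in SE 24 h, and that library lay within the range of the controls.

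**Figure D3:**
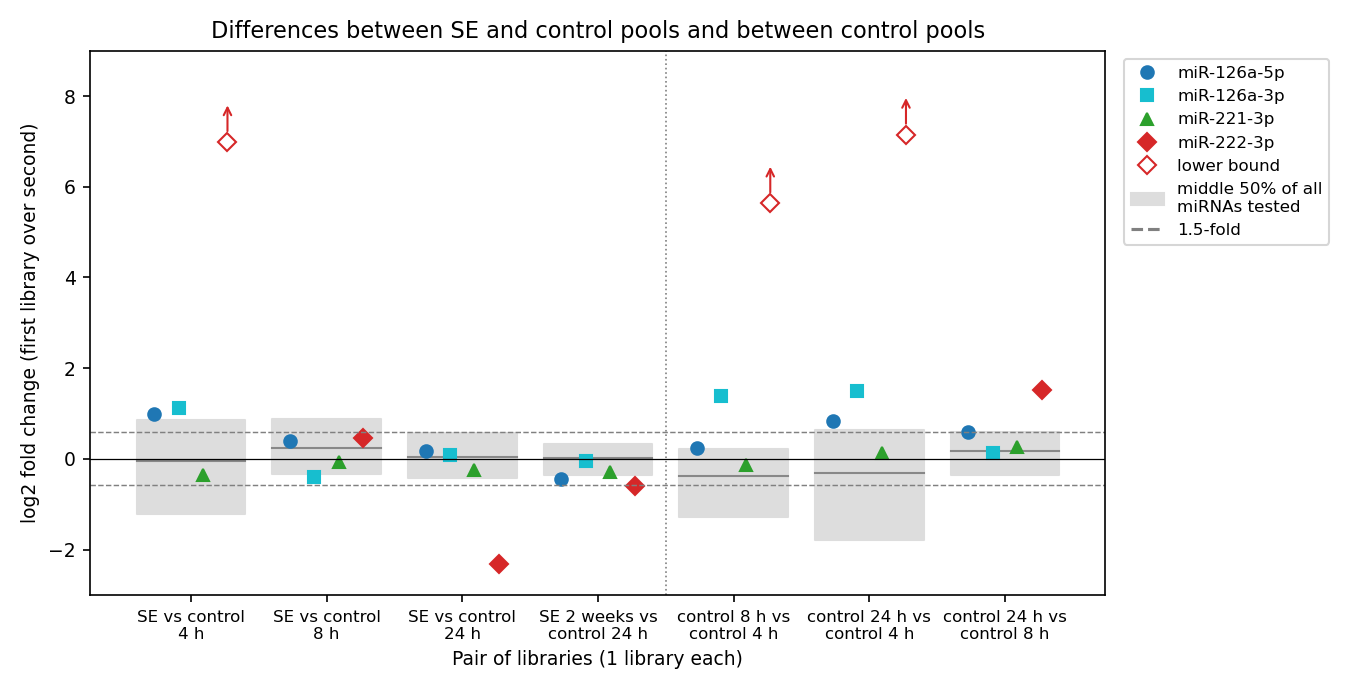
log2 fold changes of the 4 miRNAs that reached 50 CPM, between SE and control pools (left of the dotted line) and between control pools (right), 1 library each. Open symbols with arrows are lower bounds, grey bars run from the lower to the upper quartile of all miRNAs tested, with a line at the median, and dashed lines mark 1.5-fold; miR-221-3p stays inside the dashed lines in all 7 pairs with TMM (at 24 h with library size only it had -0.85), and miR-222-3p reaches -2.31 at 24 h.

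The 3 acute SE libraries (4, 8 and 24 h) were also set against the 3 controls of the same times with edgeR's quasi-likelihood test, which measures the spread from the libraries. These are different times and not replicates of a condition. miR-126a-5p averaged 2016 ± 285 CPM (SD, n = 3) in SE and 1442 ± 448 CPM in control. Its log2 fold change was 0.48 (standard error 0.28), with an edgeR Benjamini-Hochberg adjusted p of 0.60. miR-126a-3p averaged 277 ± 61.8 CPM in SE and 249 ± 116 CPM in control, and miR-221-3p 384 ± 31.9 and 447 ± 41.5 CPM. For miR-222-3p the means were 128 ± 85.1 and 110 ± 124 CPM, so the control SD was larger than the control mean.

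The edgeR log2 fold changes of the other 3 were 0.15 for miR-126a-3p (adjusted p = 0.94), -0.22 for miR-221-3p (adjusted p = 0.89) and 0.22 for miR-222-3p (adjusted p = 0.96). Standard errors were 0.47, 0.29 and 1.46. SE and control values overlapped for all 6 miRNAs, and exact two-sided permutation tests of log2(CPM + 1) gave p between 0.20 and 1, where 3 against 3 cannot go below 0.10. Over all 137 miRNAs the quasi-likelihood test called 0 at an adjusted p under 0.05, which is 0% of those tested, and 17 at an unadjusted p under 0.05, none of them a member. DESeq2 called 4 after adjustment (2.92%), none a member. Without control 4 h the log2 fold changes of miR-126a-3p and miR-222-3p became -0.19 and -0.36.

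Ratios within a library do not depend on how libraries are scaled. The 5p arm gave most of the miR-126a counts in every library: in controls 90.4% of 2104 at 4 h (95% Wilson interval 89.0 to 91.5), 81.0% of 6866 at 8 h (80.1 to 81.9) and 85.6% of 8979 at 24 h (84.8 to 86.3). In SE the share was 89.5% at 4 h (88.9 to 90.1), 88.1% at 8 h (87.3 to 88.8), 86.3% at 24 h (85.5 to 87.1) and 81.8% at 2 weeks (80.8 to 82.8). The order of SE and control changed with time. SE was above control by intervals that did not meet at 8 h, the intervals met at 4 h and 24 h, and the 2-week library was below control 24 h by intervals that did not meet. Counted in low-count units, the 8 h shares were 88.1% (81.6 to 92.6) and 80.7% (72.5 to 86.9), those of SE 2 weeks and control 24 h were 81.7% (75.1 to 86.9) and 85.3% (79.0 to 89.9), and the intervals overlapped in both cases. Here and below, overlap of intervals does not show that shares are equal, and no difference between shares was tested.

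miR-222-3p was compared in the same way with miR-221-3p, its neighbour on the X chromosome. Of the counts of the pair it gave 0 of 778 in control 4 h (Wilson upper limit 0.491%), 17.4% at 8 h (15.9 to 19.1) and 33.4% at 24 h (31.7 to 35.1). In SE it gave 38.4% at 4 h (36.5 to 40.3), 23.2% at 8 h (21.3 to 25.2), 10.6% at 24 h (9.06 to 12.4) and 28.8% at 2 weeks (26.7 to 31.0). Among SE libraries the share was highest at 4 h and lowest at 24 h, while among controls it was lowest at 4 h and highest at 24 h. In low-count units the 24 h shares were 10.3% (3.58 to 26.4) in SE and 34.0% (22.7 to 47.4) in control, and the 4 h shares 38.5% (27.6 to 50.6) and 0 of 8 units (upper limit 32.4%), so the intervals overlapped at both times.

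The arms of miR-222 had unlike counts at 24 h. miR-222-5p had 113 counts in SE and 117 in control, close to each other, while miR-222-3p had 138 and 966. The 5p share of miR-222 was thus 45.0% in SE 24 h (39.0 to 51.2) and 10.8% in control 24 h (9.09 to 12.8). It was 12.2% in SE 4 h and 6.15% in SE 8 h. In low-count units the 24 h shares were 2 of 5 in SE (11.8% to 76.9%) and 2 of 20 in control (2.79% to 30.1%), and these intervals overlapped.

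**Figure D4:**
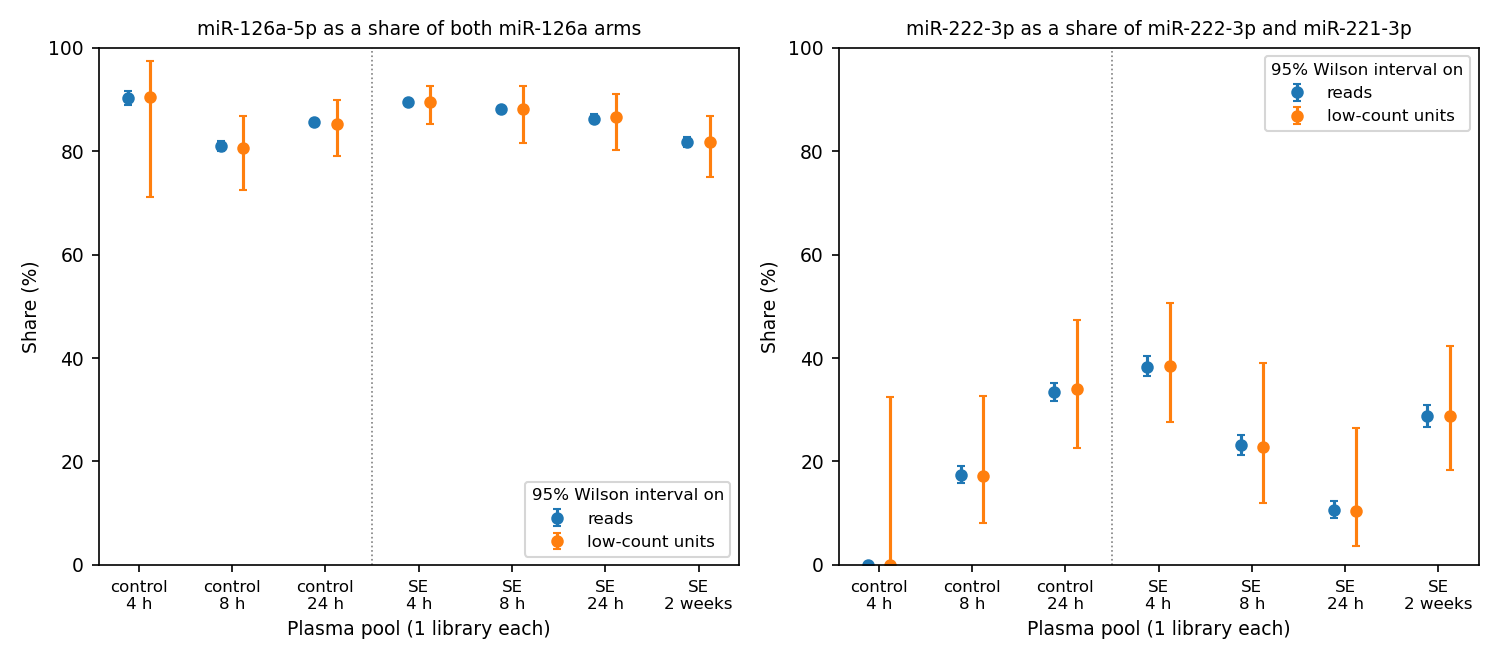
Share of miR-126a counts from the 5p arm (left) and share of miR-222-3p in the sum of miR-222-3p and miR-221-3p (right), in percent, in each of the 7 libraries. Bars are 95% Wilson intervals computed on reads (blue) and on low-count units (orange); the left shares run from 81.0% to 90.4% and the right shares from 0 to 38.4%.

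miR-126a-3p was also set against miR-221-3p and miR-222-3p together, the guide strands of both loci. In controls the ratio was 0.261 at 4 h, 0.616 at 8 h and 0.448 at 24 h, and the acute SE libraries had 0.448, 0.452 and 0.747 in order of time, followed by 0.572 at 2 weeks. All 6 members together held from 0.144% of the counts in control 4 h to 0.351% in control 24 h, and miR-126a-5p alone gave 61.9% to 72.0% of them.

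Other miRNAs known from the cells that carry these were read from lists chosen with results of these data known. Of 7 platelet miRNAs 6 were counted, all of them tested: 1 was called higher at 4 h and 1 at 8 h, 2 were called lower at 24 h and 0 were called at 2 weeks. Over all miRNAs tested 32.3% were called higher at 4 h, 35.1% higher at 8 h and 19.9% lower at 24 h. The platelet median log2 fold changes were 0.46, 0.34, -0.34 and -0.02, against -0.06, 0.23, 0.04 and 0.01 over all miRNAs tested. miR-191-5p and miR-21a-5p, the most abundant of them, were called at no time-point, and miR-146a-5p was called lower at 24 h (log2 fold change -0.70). Between control 8 h and control 24 h, 5 of the 6 were called higher in the latter, where 26.2% of all miRNAs were, with a median of 0.80 against 0.16 over all. Platelet miRNAs were not alone in this. Of 5 leukocyte miRNAs 4 were tested, and all 4 were called higher, with a median of 0.90. miR-223-3p and miR-150-5p are on both lists. miR-126a-5p and miR-222-3p were called in the same direction, while miR-126a-3p (0.12) and miR-221-3p (0.27) were not called.

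Of 11 endothelial miRNAs, all counted and 6 or 7 tested, 3 were called higher and 1 lower at 4 h, 3 higher at 8 h, 1 higher and 1 lower at 24 h and 2 higher at 2 weeks. Over all miRNAs the shares called higher and lower were 32.3% and 34.9%, 35.1% and 14.9%, 24.8% and 19.9%, and 18.6% and 13.1% in the same order. The endothelial medians were 0.21, 0.67, -0.13 and 0.23. miR-10b-5p was called higher at all 4 times (log2 fold changes 0.83, 0.84, 0.99 and 0.66), but it was not called at 24 h with library size only (0.38) nor against control 4 h at 8 h (0.31), 24 h (-0.032) or 2 weeks (-0.36). Against control 8 h it was not called at 24 h (0.50) or 2 weeks (0.17). With BCV 0.4 or a 2-fold threshold it was called at no time. miR-92a-3p was called at none of the 4 times. Summed over the 5 leukocyte miRNAs the level was 4690 to 10187 CPM in control and 5734 to 10029 CPM in SE, and over the 6 platelet miRNAs 16923 to 33233 and 19044 to 33160 CPM. Red blood cell miRNAs summed to 556444 to 895650 CPM in control and 524618 to 1014560 CPM in SE. Nearly all of this was miR-486b-5p, which gave 891856 of the 895650 CPM in control 4 h. miR-144-3p, another of that list, also had no counts in control 4 h. miR-143-3p of vascular smooth muscle was called higher in SE at 4 h, 8 h and 2 weeks (log2 fold changes 1.67, 0.75 and 0.64), and miR-145a-5p, the other miRNA of that list, was called lower at 4 h with 53 counts against 90 (-2.05). Those 90 counts were under the low-count unit of control 4 h (102 counts). miR-133a-3p, the 1 muscle and heart miRNA counted of 4 listed, ranged from 75.5 to 888 CPM in control and from 116 to 1439 CPM in SE. It was called higher in SE at 8 h, 24 h and 2 weeks (log2 fold changes 0.86, 1.25 and 0.62) but not at 4 h (0.31). Between controls it was called lower at 24 h than at 8 h (-3.39). The 3 neuronal miRNAs summed to 1142 to 2273 and 1259 to 1953 CPM, and hepatocyte miR-122-5p had no counts in the controls and at most 17.8 CPM in SE. The part of RNA from these cells in the values above was not tested.

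The miRNAs with a pattern most like each member were found by Pearson correlation of log2(CPM + 1) over the 7 libraries, taken from the 102 miRNAs that reached 50 CPM in every library. For miR-126a-3p they were miR-98-5p (r = 0.996), miR-1198-5p (0.92) and miR-301a-3p (0.91), and for miR-221-3p they were miR-130a-3p (0.89), miR-103-3p (0.83) and miR-93-5p (0.79). For miR-126a-5p they were miR-25-3p (0.87), miR-15a-5p (0.80) and miR-101b-3p (0.79). miR-222-3p was not ranked because it fell under 50 CPM in 2 libraries. The points share the libraries and their scaling. Without control 4 h, 1 of the 3 remained for each member: miR-98-5p for miR-126a-3p (r = 0.98), miR-15a-5p for miR-126a-5p (0.79) and miR-130a-3p for miR-221-3p (0.96). With library size only, miR-98-5p and miR-1198-5p stayed nearest to miR-126a-3p, but none of the 3 named for miR-126a-5p and 1 of the 3 for miR-221-3p remained.

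Between members, the arms of miR-126a had r = 0.62 over the 7 libraries, and miR-126a-3p and miR-222-3p had r = 0.85. miR-221-3p and miR-222-3p, neighbours with 1 seed, had r = -0.32, which became 0.29 with library size only. Control 4 h was lowest for both miR-126a arms and for miR-222-3p, and without it these 3 values became 0.0091, -0.27 and 0.067, so none of them held without that library.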

How the data were processed

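Small RNA bound to Ago2 in 7 pools of plasma (1 per condition) was measured. The authors trimmed adapters, size-selected reads and aligned them to miRBase with BLASTn in the Chimera software, allowing 2 mismatched nucleotides, and deposited raw counts per mature miRNA (640). The study's methods name miRBase release 21, and the version of Chimera is not given in the sources used here. Reads of near-identical miRNAs could have been shared out by this alignment.

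Total counts per library were 2043220 to 5405357. TMM factors were computed over all 7 libraries with edgeR 4.0.16 (R 4.3.3, limma 3.58.1). Pairs of libraries were compared by the exact test with BCV 0.1, as the study's methods set it, and a prior count of 0.125, and the acute libraries by the quasi-likelihood test, adjusted by Benjamini-Hochberg over those reaching 50 CPM in 3 or more of 6 libraries. The standard error is the log2 fold change divided by the square root of F. Shares, Wilson intervals and correlations were computed in Python 3.11.15 with scipy 1.17.1. Folds against 3 or fewer counts used 3 counts. The low-count unit is where a kernel density of log-transformed counts (range 6 to 300, bandwidth 0.15) peaks. Sequences came from RefSeq and loci from GENCODE M21, both on GRCm38.

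All 6 members are named, and beside them the 3 nearest miRNAs by correlation, up to 4 of the most abundant in each list and any miRNA sharing a seed. Members and lists were chosen with earlier results of these data known. On simulated counts of the 4 h comparison at BCV 0.1 the exact test called 55 of 55 miRNAs changed 4-fold, with 0 false calls among 91. Those counts were drawn at the BCV that the test assumes. The exact test was not simulated at the spread of these data, so its false calls there are not known. For the acute comparison at BCV 0.587, that of these data, the quasi-likelihood test called 29 of 51 changed 4-fold, with 1 false call among 99. Alternatives were other scalings, filters, BCV, fold thresholds, prior counts and control libraries, DESeq2 1.42.0, a block on time-point and leaving out libraries. The floor of 3 low-count units, and spreads and correlations without control 4 h, were chosen after seeing the data.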

Additional observations from a re-analysis of the deposited data

Results flagged for a closer look

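miR-222-3p was singled out because it was called in opposite directions at different times after SE. Its log2 fold change was at least 6.99 at 4 h, where the control had no counts, -2.31 at 24 h and -0.61 at 2 weeks. The difference between the time-points was not tested, since each has 1 library a side. The 24 h and 2-week values share the 24 h control, in which miR-222-3p was highest of all 7 libraries, and the 4 h value rests on the library with the largest low-count unit.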

How the results depend on the processing

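The 4 h comparison called 3 members, the 8 h comparison 0, and those of 24 h and 2 weeks 1 each. In what follows, brackets give the calls over all miRNAs tested in the same setting. At 4 h the number of members called became 5 of 6 tested with any count in either library (310 of 429). It became 1 with BCV 0.4 (58 of 189) and 0 against control 24 h (90 of 154). At 8 h it became 1 of 5 with any count (257 of 424). It became 3 against control 4 h (122 of 189) and 1 against control 24 h (101 of 159). At 24 h it became 2 with library size only (88 of 144). It was also 2 against control 4 h (124 of 179) and against control 8 h (61 of 139). At 2 weeks it became 0 with library size only (49 of 156) and with TMM without miR-486a-5p and miR-486b-5p (43 of 145). It was also 0 with BCV 0.4 (8 of 145) and with a 2-fold threshold (21 of 145). It became 3 of 6 with any count (238 of 420) and 2 against control 4 h (121 of 182). The cause of these changes was not tested. Over all miRNAs the calls (127, 77, 63 and 46 at the 4 times in order) became 310, 257, 261 and 238 with any count, 50, 36, 30 and 16 with at least 200 CPM and 58, 23, 19 and 8 with BCV 0.4. With a 2-fold threshold the last 3 became 43, 37 and 21, and against control 4 h 122, 124 and 121, while the first became 83 against control 8 h and 90 against control 24 h. The median log2 fold change of all miRNAs moved from -0.057 to -0.21 at 4 h and from 0.23 to 0.083 at 8 h with DESeq2 size factors, and from 0.0093 to 0.17 at 2 weeks with TMM without miR-486a-5p and miR-486b-5p. Among the log2 fold changes of single members between 2 libraries, 127 of 159 values kept direction and side of the threshold, 12 lost a call, 9 gained one and 17 changed sign, of which 3 also lost a call, 3 gained one and 2 were called in the other direction. The filters could not change a tested member's fold change or call, and BCV and fold threshold could not change its sign. Part of the 127 was thus fixed in advance.

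Against other controls the sign changed at 4 h for miR-126a-3p (-0.25 and -0.37) and miR-222-3p (-0.16). At 8 h it changed for miR-126a-3p (0.97), miR-126a-5p (-0.21) and miR-222-3p (-1.06), and at 24 h for miR-221-3p (0.032). For miR-222-3p at 24 h the direction also turned against control 4 h, which held no counts against 138, but that pair was not tested. At 2 weeks it changed for miR-126a-3p (1.45 and 0.077), miR-126a-5p (0.40 and 0.16) and miR-222-3p (at least 6.54, and 0.91). With library size only it changed at 24 h for miR-126a-3p (-0.54) and miR-126a-5p (-0.45) and at 2 weeks for miR-126a-3p (0.029), which also had 0.11 with TMM without miR-486a-5p and miR-486b-5p.

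In the comparison of 3 acute SE with 3 control libraries no member was called under any alternative, and between 0 and 4 miRNAs were called over all tested. With time-point as a replicate block 0 members were called, and miR-126a-5p had a log2 fold change of 0.52 (edgeR adjusted p = 0.36). Over all alternatives the adjusted p of miR-126a-5p was 0.36 to 0.98. With library size only miR-126a-3p and miR-222-3p changed sign (-0.23 and -0.17). Leaving out 1 library gave miR-126a-3p -0.19 to 0.40 (-0.19 without control 4 h, -0.045 without SE 24 h) and miR-222-3p -0.41 to 1.57 (-0.36 without control 4 h, -0.41 without SE 4 h). In each case 0 members were called. Dividing counts by the low-count unit moved the 5p share of miR-221 from 8.04% to 11.1% in control 4 h and from 1.06% to 0% in SE 4 h, and that of miR-222 in SE 8 h from 6.15% to 11.1%.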

Other observations

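Both arms of 50 hairpins were listed with at least 50 CPM together in every library. The 5p arm gave most of the counts in all 7 libraries for 28 of them, miR-126a included, and the 3p arm for 21, miR-221 included. For 12 hairpins the mean 5p share lay between 5% and 95%. The 5p share of miR-126a ranged over 9.34 percentage points, the 14th widest of the 50, but hairpins outside those 12 have little room to range. Among the 12, which include miR-126a, only miR-423 (8.81 points), miR-151 (5.86) and miR-30e (5.66) had a narrower range than miR-126a.

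Of the 127 miRNAs with a median of at least 50 CPM in the other 6 libraries, 4 had no counts in control 4 h, and miR-222-3p was one of them, at a median of 139 CPM elsewhere. With the same rule applied to each library in turn, SE 24 h lacked 1 miRNA and the other 5 libraries lacked 0.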
